A study of Homo sapiens with 12 samples.

Results

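The genes described here are those of the unfolded protein response and of protein quality control in the endoplasmic reticulum (ER), 35 genes listed by name for their place in the pathway, with earlier results of these data known. All 35 matched an identifier among the 61552 genes of the counts table, and 34 had enough reads to be tested among 20304 genes. The exception was DERL3, a derlin of ER-associated degradation, with 17 reads in SK-N-BE(2) ML210, 8 in SK-N-BE(2) control, 15 in SK-N-AS ML210 and 10 in SK-N-AS control, each summed over 3 libraries. The 4 groups were cultured human neuroblastoma cells labelled SK-N-BE(2) and kept overnight with ML210, untreated cells of that label, cells labelled SK-N-AS with ML210, and untreated cells of that label. ML210 blocks GPX4, an enzyme that detoxifies peroxidised membrane lipids. Cells that lose this activity can die by ferroptosis, which depends on iron. All cells carried the genotype given as wild type, no dose is given, and each group held 3 libraries of messenger RNA, 1 from each of 3 batches. Both lines are established, there is 1 of each kind in the series, and only the batch label separates the replicates, so that p-values measure the spread between these libraries, which may be technical.

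Proteins that enter the ER are folded there by chaperones, lectins and disulfide-forming enzymes, and those that do not fold are sent back to the cytosol and degraded. When unfolded proteins accumulate, they draw the chaperone HSPA5 (also called BiP) away from the membrane sensors IRE1 (gene ERN1), PERK (gene EIF2AK3) and ATF6. IRE1 splices the messenger RNA of XBP1, PERK slows translation and favours that of ATF4, and ATF6 is cut in the Golgi to free a transcription factor. XBP1 and ATF6 then raise the genes of chaperones and of ER-associated degradation.

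Both factors are known for acting through short DNA elements near gene starts, and the promoters that carry them are shown because they are what several members share beyond function. The ER stress response element was searched as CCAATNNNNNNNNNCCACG, its second form as ATTGGNCCACG, the UPR element as TGACGTGG and the ATF4 half-element as TGATGNAA. Both strands of RefSeq windows from 250 bases before to 50 bases after each gene start were read (build GRCh38.p14), and 31 members had such a window. The first element was found in 8 of these members (25.8%), against 25 of all 27305 genes with a window (0.0916%). They were HSPA5, HSP90B1, CALR, CANX, PDIA6, ERO1B, CRELD2 and XBP1. The second form was found in HYOU1, SDF2L1 and HERPUD1, 3 members (9.68%) against 19 of all genes (0.0696%). The UPR element was found in HYOU1 and DNAJC10 (6.45% of members, 0.927% of all genes), and in HYOU1 it overlaps the second form. The ATF4 half-element was found in HERPUD1 and CREB3L2 (6.45% of members, 4.46% of all genes). PDIA3, DERL1, DERL3 and SEC24D had no such window. The members were listed for the pathway whose factors are known for these elements, so the shares describe the set and test nothing.

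The stretches before the gene start that lie in no annotated exon of the gene are printed 5′ to 3′ on the gene's strand. Capitals mark the fixed letters of the first element, of its second form and of the UPR element on either strand. HSPA5 lies at chr9:125241344-125241593 on the minus strand, CALR at chr19:12938359-12938577 on the plus strand, HYOU1 at chr11:119057206-119057455 on the minus strand, XBP1 at chr22:28800598-28800819 on the minus strand and PDIA6 at chr2:10812845-10813035 on the minus strand.
HSPA5: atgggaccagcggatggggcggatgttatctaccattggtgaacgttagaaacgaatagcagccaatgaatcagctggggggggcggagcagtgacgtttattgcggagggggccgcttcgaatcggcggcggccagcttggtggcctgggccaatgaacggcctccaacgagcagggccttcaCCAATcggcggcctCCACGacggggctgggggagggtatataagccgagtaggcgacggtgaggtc
CALR: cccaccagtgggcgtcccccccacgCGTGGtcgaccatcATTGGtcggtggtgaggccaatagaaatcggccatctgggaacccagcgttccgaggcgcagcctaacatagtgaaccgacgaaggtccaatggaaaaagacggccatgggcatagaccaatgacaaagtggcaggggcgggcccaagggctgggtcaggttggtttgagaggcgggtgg
HYOU1: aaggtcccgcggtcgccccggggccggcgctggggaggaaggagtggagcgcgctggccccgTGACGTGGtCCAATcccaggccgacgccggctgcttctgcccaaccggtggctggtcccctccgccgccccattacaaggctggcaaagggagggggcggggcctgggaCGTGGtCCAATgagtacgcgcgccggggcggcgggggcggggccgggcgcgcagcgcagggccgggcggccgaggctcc
XBP1: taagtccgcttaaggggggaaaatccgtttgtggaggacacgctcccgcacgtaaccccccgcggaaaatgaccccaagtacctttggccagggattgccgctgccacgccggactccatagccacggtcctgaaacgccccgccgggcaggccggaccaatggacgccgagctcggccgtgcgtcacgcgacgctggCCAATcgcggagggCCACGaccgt
PDIA6: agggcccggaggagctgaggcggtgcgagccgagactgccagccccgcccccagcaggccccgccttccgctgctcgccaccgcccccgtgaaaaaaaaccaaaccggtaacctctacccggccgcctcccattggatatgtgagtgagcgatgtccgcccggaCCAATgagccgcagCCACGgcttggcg

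For HSP90B1 and CANX the windows that hold an element lie inside the annotated span of the gene, so the elements alone are given. HSP90B1 holds a pair of first elements, the other of them on the opposite strand, at chr12:103930216-103930234 and chr12:103930321-103930339. CANX holds 1 at chr5:179698778-179698796.
HSP90B1 upstream element: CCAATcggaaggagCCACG
HSP90B1 downstream element: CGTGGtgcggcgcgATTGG
CANX element: CCAATcttcacactCCACG
A match is a description of letters, and whether any factor bound there was not measured.

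Library totals lay between 54047293 and 83481963 counted reads, and a member had a median of 6569.5 reads in a library. Levels are in CPM, counts divided by a library total that TMM, edgeR's correction for composition, has scaled. MYCN, the oncogene said by the series to be amplified in SK-N-BE(2), averaged 0.154 ± 0.0899 CPM in ML210 and 0.166 ± 0.0727 CPM in control libraries labelled SK-N-BE(2) (SD, n = 3 each), against 3855 ± 115 and 3558 ± 122 CPM in ML210 and control libraries labelled SK-N-AS. The levels go against the line labels, so the libraries are called by their label throughout, and any difference between line labels has a direction only as far as the labels hold. The summed level of 10 mesenchymal neuroblastoma markers was 3445 to 4254 CPM over the libraries labelled SK-N-BE(2) and 393.2 to 519.3 CPM over those labelled SK-N-AS. That of 10 adrenergic markers was 1222, 1453 and 1724 CPM in SK-N-BE(2) ML210 against 1452, 1597 and 1846 CPM in SK-N-BE(2) control, lower with ML210 in every batch though the groups overlap. It was 8235, 8167 and 8039 CPM in SK-N-AS ML210 against 8790, 9246 and 8745 CPM in SK-N-AS control, with no overlap. GPX4, the target of ML210, differed by -0.08 on the log2 scale (SE 0.0591) between ML210 and control in SK-N-BE(2) and by -0.12 (SE 0.0591) in SK-N-AS, with adjusted p of 0.667 and 0.751 in edgeR's quasi-likelihood test. The 13 mitochondrially encoded transcripts summed to 20910, 25440 and 18510 CPM in SK-N-BE(2) ML210 against 20220, 17960 and 20790 CPM in SK-N-BE(2) control, and to 40670, 38160 and 46240 CPM in SK-N-AS ML210 against 46110, 53130 and 58960 CPM in SK-N-AS control. Their part in the results that follow was not tested.

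The members together took 0.709% to 0.977% of the counted reads of a library. Their summed level was 8987, 8703 and 8072 CPM in SK-N-BE(2) ML210 (batches 1, 2 and 3), against 8175, 8064 and 7297 CPM in SK-N-BE(2) control. It was 8525, 8387 and 8207 CPM in SK-N-AS ML210, against 8127, 7912 and 7911 CPM in SK-N-AS control. The sum was thus higher with ML210 in every batch of both labels, with overlap of the groups in SK-N-BE(2) and none in SK-N-AS.

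Divided by the summed length of annotated exons, the members spanned several orders of magnitude. The calcium-binding lectin chaperone CALR was highest in every group, at 423.2 ± 14.3 and 363.5 ± 30.5 CPM per kilobase in SK-N-BE(2) ML210 and control and 371.5 ± 18.4 and 335.1 ± 16.2 CPM per kilobase in SK-N-AS ML210 and control (SD, n = 3 each). HSPA5 followed in every group, at 238.4 ± 20.2 CPM per kilobase in SK-N-BE(2) control and 270.7 ± 17.3 in SK-N-AS control. Next in the SK-N-BE(2) controls came HSP90B1 with 168.1 ± 13.7 and PDIA4 with 153.5 ± 14.3 CPM per kilobase, neighbours whose spreads overlap, while next in the SK-N-AS controls came CANX with 165.5 ± 3.22 and HSP90B1 with 154.1 ± 3.35. At the low end of the tested members stood the sensor ERN1, with 1.35 ± 0.212 CPM per kilobase in SK-N-BE(2) control and 0.428 ± 0.0331 in SK-N-AS control, and the oxidase ERO1B, with 1.94 ± 0.172 and 0.306 ± 0.019 in the same groups. CALR and HSPA5 thus led the set under both labels, and ERN1 and ERO1B were the lowest of the tested members.

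**Figure D1:**
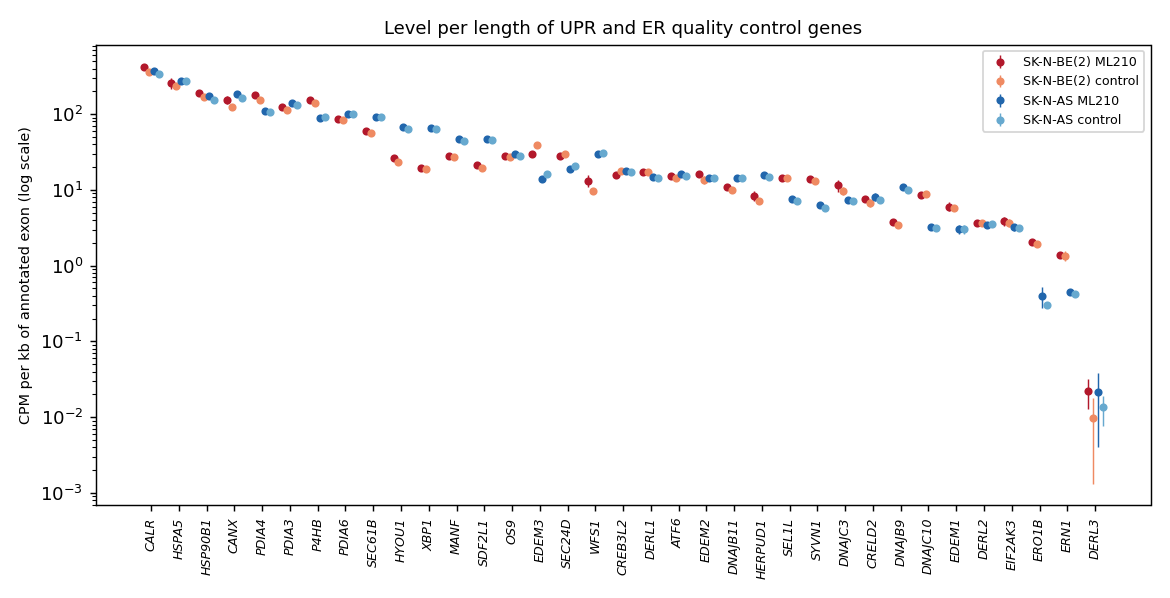
Mean CPM per kilobase of annotated exon (log axis) of the 35 genes in the 4 groups, with SD over 3 libraries as bars (bars are shortened where they would reach 0). CALR and HSPA5 lead in every group, ERN1 and ERO1B are lowest of the tested genes, and DERL3, too low to test, is below them.

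With ML210, 1 member fell and none rose in the cells labelled SK-N-BE(2) when the spread was taken over all libraries of a group, and none was called in the cells labelled SK-N-AS. The one that fell was EDEM3, a mannose-trimming protein that marks misfolded glycoproteins for degradation. When libraries of the same batch were compared with each other, 7 members rose in SK-N-BE(2), namely HSP90B1, HYOU1, DNAJC3, CALR, CANX, PDIA4 and WFS1, and EDEM3 still fell. A call here is an adjusted p under 0.05 in edgeR's quasi-likelihood test, adjusted over all 20304 genes. The share of all genes called higher was 0.818% and lower 0.557% in SK-N-BE(2), and 0.0246% and 0.00493% in SK-N-AS. In the fit that pairs libraries of a batch, 3.42% of all genes were called higher and 3.4% lower in SK-N-BE(2), beside the 7 and 1 members of 34. In SK-N-AS that fit called 0.103% of all genes higher, 0.0837% lower and no member.

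Most members sat slightly above 0. In SK-N-BE(2), 27 of 34 had a positive log2 fold change and the median was 0.094, against a median of 0.001 and 50.2% positive over all genes tested. In SK-N-AS, 27 of 34 were again positive and the median was 0.046, against -0.008 and 47.5% over all genes. In SK-N-BE(2) some of the 6 related lists given below tilted the same way. ER-phagy receptors had a median of 0.152 (7 of 8 positive) and the PERK branch list 0.143 (13 of 18). Translocation and early secretion had 0.065 (35 of 46 positive). Other degradation genes, other folding genes and other factors had 0.036, 0.012 and -0.014. In SK-N-AS the 6 medians in this order were 0.101, 0.021, -0.017, 0.032, 0.007 and 0.021. The range over members was -0.38 to 0.45 in SK-N-BE(2) and -0.19 to 0.39 in SK-N-AS. At an unadjusted p under 0.05, 9 members were higher and 1 lower in SK-N-BE(2), and 2 were higher and 1 lower in SK-N-AS, where 13.5% and 6.89% of all genes passed in either direction. DESeq2 called 2 members higher in SK-N-BE(2) and none in SK-N-AS. The 10 adrenergic markers moved the other way with ML210, with 8 of 10 negative, a median of -0.22 and PHOX2A called lower in SK-N-BE(2), and 7 of 10 negative, a median of -0.10 and none called in SK-N-AS (unadjusted p under 0.05 for 2). Their part in the members' values was not tested. These are RNA levels of whole cultures, in which fewer cells with a transcript and less of it in each cell cannot be told apart. All 3 ML210 libraries lay above all 3 controls for 8 members and below them for 1 in SK-N-BE(2), where 9.22% and 8.18% of all genes did so. The same held for 6 members above and 1 below in SK-N-AS, where 6.01% and 8.86% of all genes did so.

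**Figure D2:**
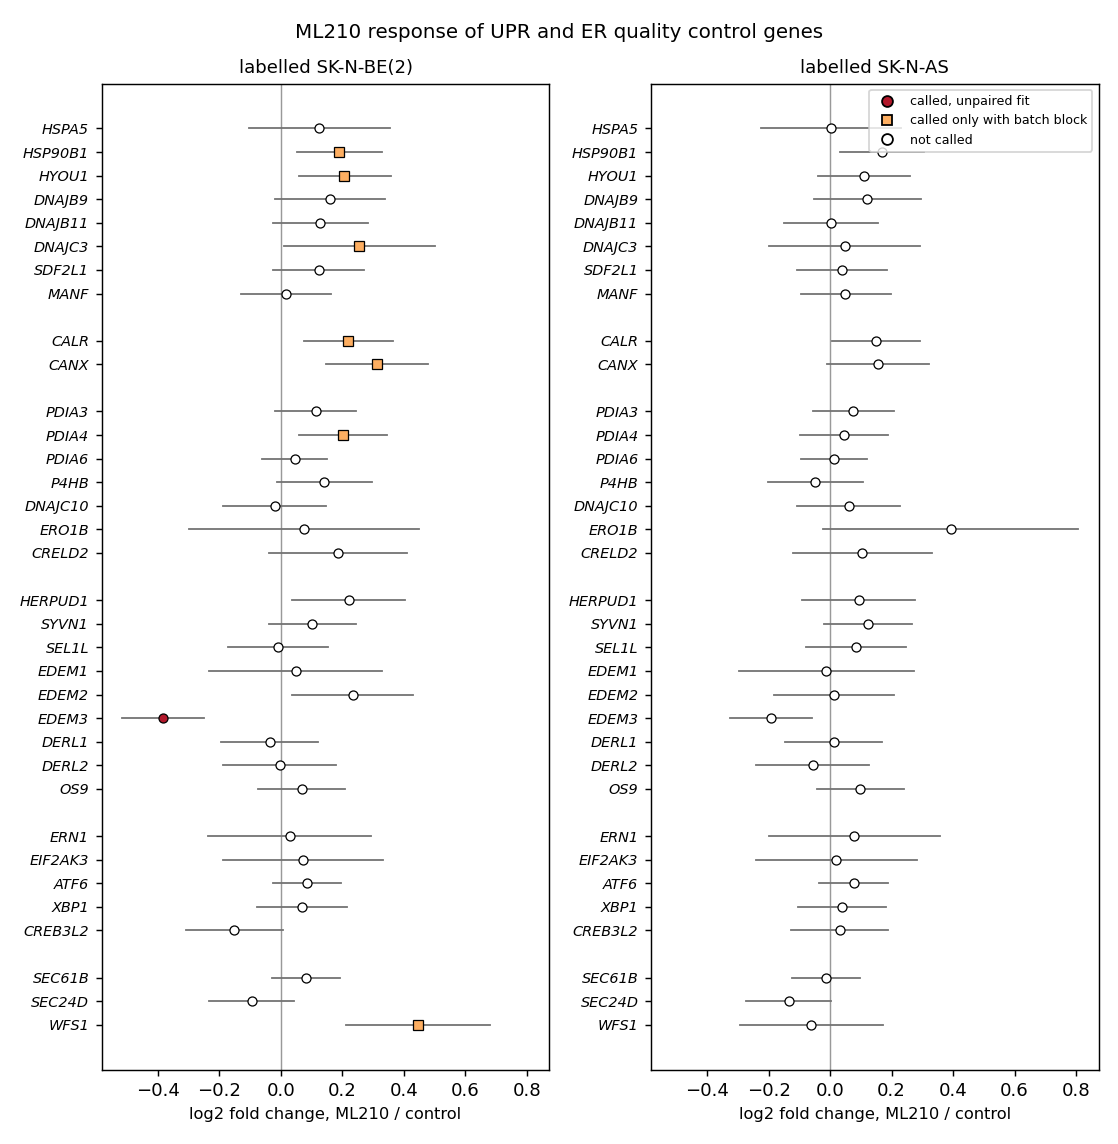
Log2 fold change of ML210 over control for the 34 tested members, ordered by role, with 95% confidence intervals, in SK-N-BE(2) and SK-N-AS. Filled circles are called in the unpaired fit, squares only with the batch block, and open symbols are not called. EDEM3 at -0.38 is the one filled point, and most others lie between 0 and 0.3.

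EDEM3 had 222.5, 222.3 and 254 CPM in SK-N-BE(2) ML210, against 322.8, 288.9 and 299.5 CPM in SK-N-BE(2) control. The treated libraries all lay below the controls. The log2 fold change was -0.38 (95% CI -0.52 to -0.25, a fold of 0.767, adjusted p = 0.0123), and it was -0.38 with an adjusted p of 0.00187 when batches were paired. In SK-N-AS the gene had 109.9, 109.2 and 111.1 CPM with ML210 against 122, 124.5 and 130.8 CPM without. Those groups did not overlap either, and the log2 fold change was -0.19 (95% CI -0.33 to -0.06, adjusted p = 0.56). Averaged over both labels EDEM3 fell by 0.29 on the log2 scale (adjusted p = 0.00848), where 0.532% of all genes were called lower and 0.699% higher. The responses of the labels differed by -0.19 (95% CI -0.38 to -0.002, adjusted p = 0.694). Without each of 3 libraries in turn the SK-N-BE(2) call was lost, with adjusted p of 0.0551 without control of batch 1, 0.0505 without ML210 of batch 1 and 0.0667 without ML210 of batch 2. It was also lost when the 6 libraries of that label were fitted alone (adjusted p = 0.0815). The log2 fold change in these 4 fits was -0.35, -0.36, -0.37 and -0.39 in the order given.

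The relatives of EDEM3 were not called. EDEM1 and EDEM2, which trim mannose in the same pathway, differed in SK-N-BE(2) by 0.049 (95% CI -0.23 to 0.33, adjusted p = 0.948) and 0.23 (95% CI 0.04 to 0.43, adjusted p = 0.26) on the log2 scale. HERPUD1, a membrane scaffold of the degradation complex, had 48.34, 44.63 and 36.11 CPM with ML210 against 36.79, 38.79 and 35.17 CPM without in SK-N-BE(2). The groups overlapped through batch 3, and the log2 fold change of 0.22 had an adjusted p of 0.257. SYVN1, the ubiquitin ligase of the complex, and SEL1L, its partner, differed by 0.10 (adjusted p = 0.565) and -0.009 (adjusted p = 0.996). The 9 tested degradation genes had a median log2 fold change of 0.049 in SK-N-BE(2) and 0.012 in SK-N-AS.

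The lectin chaperones CANX and CALR, which hold glycoproteins while they fold, both rose in SK-N-BE(2) when batches were paired. CANX had 1075, 953.8 and 847.1 CPM in SK-N-BE(2) ML210, against 834.5, 758.1 and 724.3 CPM in SK-N-BE(2) control. Every treated library lay above every control, and batch 3 was lowest on both sides. The log2 fold change was 0.31 (95% CI 0.15 to 0.48) with an adjusted p of 0.0646 unpaired and 0.00312 paired by batch. In SK-N-AS, CANX had 1132, 1152 and 1168 CPM with ML210 against 1036, 1010 and 1050 CPM without, again with no overlap, and a log2 fold change of 0.16 (adjusted p = 0.743). CALR had 1128, 1194 and 1125 CPM in SK-N-BE(2) ML210 against 1000, 1062 and 898 CPM in control. These groups did not overlap, and the log2 fold change of 0.22 had an adjusted p of 0.136 unpaired and 0.0234 paired. In SK-N-AS, CALR had 1053, 1017 and 954.4 CPM with ML210 against 959.5, 877.4 and 891.4 CPM without, with slight overlap. The log2 fold change there was 0.149 in the paired fit (adjusted p = 0.306).

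Of the chaperones, all 8 had a positive log2 fold change in both labels, with medians of 0.144 in SK-N-BE(2) and 0.049 in SK-N-AS. HSP90B1, the ER member of the HSP90 family, had 896.9, 956.6 and 847.7 CPM in SK-N-BE(2) ML210, against 801.4, 846.3 and 719.7 CPM in control. The groups just missed overlapping, and the log2 fold change of 0.19 had an adjusted p of 0.179 unpaired and 0.0255 paired. In SK-N-AS, HSP90B1 had 820.5, 824.7 and 794.5 CPM with ML210 against 730.3, 734.8 and 705.6 CPM without, with no overlap. The log2 fold change there was 0.169 in the paired fit (adjusted p = 0.186). HYOU1, a large chaperone that exchanges the nucleotide of HSPA5, had 210.9, 216.9 and 189.6 CPM with ML210 against 185, 187.7 and 162.2 CPM without. Its log2 fold change of 0.21 was alike in the 3 batches, at 0.19, 0.209 and 0.225. The adjusted p was 0.177 unpaired and 0.0144 paired. In SK-N-AS, HYOU1 had 548.9, 531 and 501.9 CPM with ML210 against 498.7, 500.8 and 465 CPM without, again with no overlap. The log2 fold change there was 0.111 in the paired fit (adjusted p = 0.363). DNAJC3, a co-chaperone that also restrains PERK, had 78.16, 59.92 and 55.27 CPM with ML210 against 61.5, 51.05 and 49.49 CPM without. Here the groups overlapped while the treated library was the higher in each batch, and the adjusted p was 0.343 unpaired and 0.0185 paired. HSPA5 itself, the chaperone that gates the sensors, had 1208, 958.2 and 881.6 CPM in SK-N-BE(2) ML210 against 994.9, 956.9 and 843.1 CPM in control. Only batch 1 was clearly higher, and the log2 fold change was 0.13 (95% CI -0.10 to 0.35, adjusted p = 0.701), beside 0.002 (95% CI -0.23 to 0.23, adjusted p of 1) in SK-N-AS. The genes of HSP90B1, CALR, CANX and HYOU1 overlap others on the opposite strand. So do those of further members, among them ERO1B, DNAJB9, PDIA3, PDIA6, P4HB and SYVN1, and SYVN1 also overlaps FAU on its own strand. The strand setting of the counting is not given in the sources used here.

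**Figure D3:**
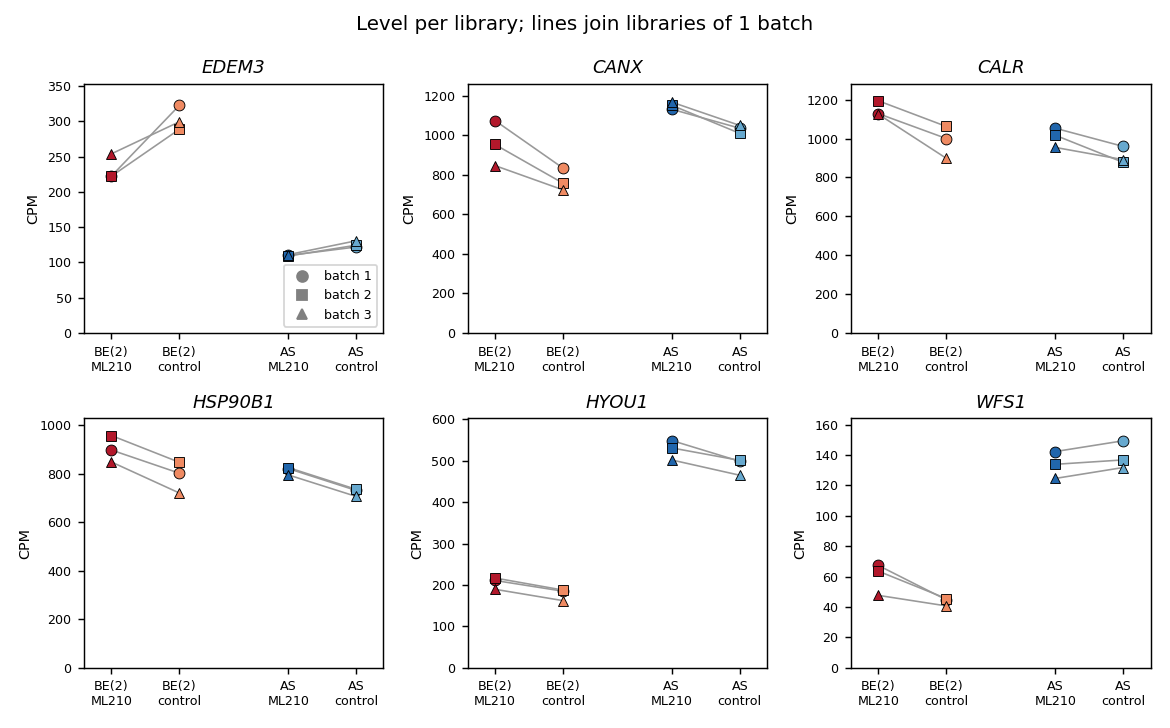
CPM per library of EDEM3, CANX, CALR, HSP90B1, HYOU1 and WFS1, with lines joining ML210 (left) and control (right) of 1 batch in each label. EDEM3 is lower with ML210 in every pair and the 4 chaperones are higher in every pair. WFS1 is higher with ML210 in every SK-N-BE(2) pair and slightly lower in every SK-N-AS pair.

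Among the enzymes of disulfide chemistry, 6 of 7 were positive in each label. PDIA4, a disulfide isomerase, had 604, 591.8 and 539.8 CPM in SK-N-BE(2) ML210 against 536.6, 522.8 and 449.6 CPM in control. The groups did not overlap, and the log2 fold change of 0.20 had an adjusted p of 0.173 unpaired and 0.0185 paired. ERO1B, an oxidase that recharges the isomerases, had 1.397, 2.465 and 2.55 CPM in SK-N-AS ML210 against 1.561, 1.602 and 1.754 CPM in control. Batch 1 went the other way from the rest, and the log2 fold change of 0.39 had a wide interval (95% CI -0.02 to 0.81, adjusted p = 0.743).

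The sensors and transcription factors were not called in either label. XBP1 had 64.59, 56.68 and 57.26 CPM in SK-N-BE(2) ML210 against 58.19, 58.9 and 53.09 CPM in control, with overlap and a log2 fold change of 0.069 (95% CI -0.08 to 0.21, adjusted p = 0.759). Counts per gene do not separate its spliced from its unspliced form. ERN1, ATF6 and EIF2AK3 differed by 0.029, 0.085 and 0.071 on the log2 scale in SK-N-BE(2), with adjusted p of 0.98, 0.542 and 0.894. CREB3L2, a membrane-bound factor cut in the Golgi like ATF6, differed by -0.15 (95% CI -0.31 to 0.01, adjusted p = 0.394).

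WFS1, the Wolfram syndrome protein of the ER membrane that bears on ER calcium, rose in SK-N-BE(2) when batches were paired. In SK-N-AS it had a small change of the opposite sign that was not called. It had 67.32, 63.57 and 47.65 CPM in SK-N-BE(2) ML210, against 44.71, 45.52 and 40.7 CPM in control. The treated libraries all lay above the controls, and batch 3 was closest to them. The log2 fold change of 0.45 (95% CI 0.21 to 0.68) had an adjusted p of 0.0638 unpaired and 0.00185 paired. In SK-N-AS it had 142.3, 133.9 and 124.6 CPM with ML210 against 149.4, 136.8 and 131.8 CPM without, a log2 fold change of -0.06 (adjusted p = 0.97) with overlap. The difference of the responses was 0.51 (95% CI 0.18 to 0.84, adjusted p = 0.509) unpaired and 0.50 (95% CI 0.30 to 0.69, adjusted p = 0.0398) paired. It was the 1 member of 34 called for that difference, which called 0.00493% of all genes unpaired and 0.419% paired. Averaged over the labels, the paired fit called the same 7 members higher and EDEM3 lower, beside 2.68% and 3.42% of all genes. The log2 values of the 7 ran from 0.125 for PDIA4 to 0.23 for CANX. In SK-N-AS alone that fit called none of them. WFS1, DNAJC3 and PDIA4 had -0.061, 0.047 and 0.045 there, so their averages rest mainly on SK-N-BE(2). HSP90B1, CANX, CALR and HYOU1 had 0.169, 0.157, 0.149 and 0.111 in SK-N-AS.

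Leaving out the SK-N-BE(2) ML210 library of batch 3, unpaired, brought 3 members over the threshold in that label, while calls over all genes went up to 556 higher and 686 lower, against 166 and 113 with every library. They were CANX with 0.37 (adjusted p = 0.00848), HERPUD1 with 0.31 (adjusted p = 0.0134) and WFS1 with 0.56 (adjusted p = 0.00111). The difference of the WFS1 responses was then 0.61 (adjusted p = 0.0228), in a fit that called 97 genes higher and 59 lower for that difference. These counts over all genes stand beside the members' calls, and nothing particular to the members is read from them.

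The log2 fold changes of the 2 labels, which share no library, had a Pearson correlation of 0.381 across the 34 members and the same sign in 26 of them (76.5%), of which 23 were positive in both. Over all 20304 genes the correlation was 0.089 and 56.4% had the same sign. These are correlations across genes, which are not independent replicates. Members with the first element were positive in 8 of 8 cases in both labels, with medians of 0.155 in SK-N-BE(2) and 0.127 in SK-N-AS. The 3 with the second form had medians of 0.207 and 0.093 in the same order. The 20 with a window and neither element had medians of 0.076 and 0.038, with 15 and 14 positive. In the unpaired fit no member with either element was called in either label. Genes outside the set that carry an element were not read here. Whether an element bears on these responses was not tested.

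The untreated cells of the 2 labels differed far more than treated from untreated cells did. Of 34 members, 12 were higher and 12 lower in SK-N-BE(2) control than in SK-N-AS control, beside 33.9% and 35.2% of all genes. The groups did not overlap for 13 members above and 14 below, beside 36.3% and 37.7% of all genes. With library totals in place of TMM, 19 members were higher and 9 lower, as 60.7% of all called genes were then higher, against 49.1% with TMM. The median absolute log2 difference was 0.527 over members and 0.809 over all genes tested. With 1 line of each kind, line identity and MYCN level cannot be told apart.

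Within the IRE1 branch the enzyme and its substrate differed in opposite directions. XBP1 had 58.19, 58.9 and 53.09 CPM in SK-N-BE(2) control against 196.7, 179.7 and 202.9 CPM in SK-N-AS control. The groups were far apart, with a log2 difference of -1.77 (95% CI -1.92 to -1.62, a fold of 0.294, adjusted p = 5.46e-11). ERN1, whose product splices XBP1, went the other way with 15.5, 12.06 and 16.44 CPM in SK-N-BE(2) control against 4.617, 5.03 and 4.313 CPM in SK-N-AS control. Its log2 difference was 1.66 (95% CI 1.38 to 1.93, a fold of 3.15, adjusted p = 4.77e-08). ATF6 and EIF2AK3, the genes of the other sensors, were not called, at -0.11 (adjusted p = 0.0762) and 0.21 (adjusted p = 0.141). Library totals in place of TMM turned ATF6 to 0.14 (adjusted p = 0.0223) and put EIF2AK3 at 0.46 (adjusted p = 0.00523), and EIF2AK3 was also called without the SK-N-BE(2) control of batch 2 (0.31, adjusted p = 0.0483).

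**Figure D4:**
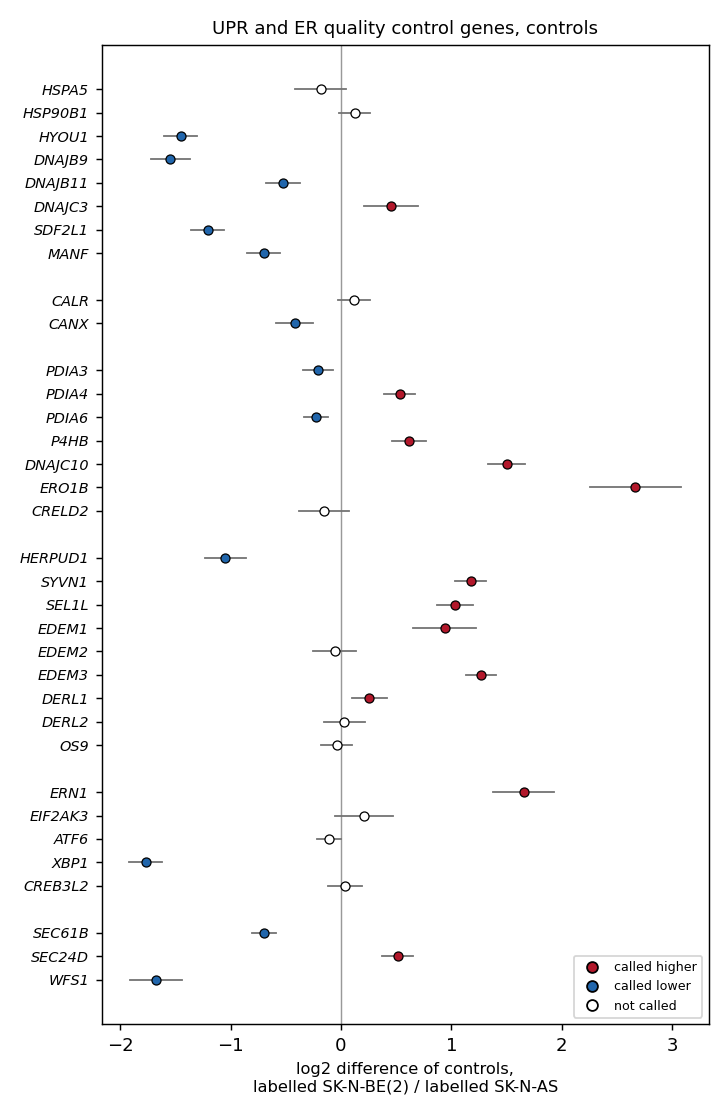
Log2 difference of control libraries labelled SK-N-BE(2) over those labelled SK-N-AS for the 34 tested members by role, with 95% confidence intervals and filled points where called. Values run from -1.77 for XBP1 to 2.67 for ERO1B, with 12 members called in each direction.

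Of the 8 chaperones, 1 was higher and 5 were lower in SK-N-BE(2), beside 33.9% and 35.2% of all genes, while 14 of 33 other folding genes were higher and 9 lower. DNAJB9, a co-chaperone that represses IRE1, had 9.802, 9.173 and 10.01 CPM in SK-N-BE(2) control against 27.31, 28.08 and 29.17 CPM in SK-N-AS control, a log2 difference of -1.55 (adjusted p = 1.2e-09). HYOU1 differed by -1.45 (adjusted p = 4.19e-10) and SDF2L1, a partner of DNAJB co-chaperones, by -1.21 (adjusted p = 2.31e-09). HSPA5 and HSP90B1, the most abundant of the group, were not called, at -0.18 (adjusted p = 0.139) and 0.13 (adjusted p = 0.0969). HSPA5 was called with a block shared by both labels (-0.19, adjusted p = 0.0226). HSP90B1 was called without the SK-N-BE(2) control of batch 3 (0.23, adjusted p = 0.00673), with library totals (0.37, adjusted p = 8.03e-05) and with no filter (0.16, adjusted p = 0.0468). The co-chaperone DNAJB11 and the secreted factor MANF were lower, at -0.52 (adjusted p = 1.57e-05) and -0.70 (adjusted p = 5.34e-07). HYOU1, SDF2L1 and HERPUD1, which carry the second form of the element, were all lower in SK-N-BE(2), with a median of -1.21. Of the 8 members with the first element, 1 was higher and 3 were lower. Of the 20 with a window and neither element, 9 were higher and 5 lower, beside 33.9% and 35.2% of all genes. The part of the elements in these differences was not tested.

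Of the 9 tested degradation genes, 5 were higher and 1 was lower in SK-N-BE(2), beside the same shares of all genes, while 13 of 33 other degradation genes were higher and 13 lower. SYVN1 had 71.65, 73.89 and 70.59 CPM in SK-N-BE(2) control against 32.44, 34.6 and 28.71 CPM in SK-N-AS control, a log2 difference of 1.18 (adjusted p = 2e-09). SEL1L differed by 1.03 (adjusted p = 2.72e-08) and EDEM3 by 1.27 (adjusted p = 4.95e-10), with folds of 2.26 for SYVN1, 2.05 for SEL1L and 2.41 for EDEM3. HERPUD1 was the 1 that was lower, at -1.05 (adjusted p = 8.81e-08). DERL2, a channel component, and OS9, a lectin that delivers glycoproteins to the ligase, were not called, at 0.03 (adjusted p = 0.768) and -0.04 (adjusted p = 0.629).

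Of the 7 disulfide enzymes, 4 were higher and 2 lower, beside 33.9% and 35.2% of all genes. ERO1B had the largest difference of all members, with 10.91, 9.352 and 11 CPM in SK-N-BE(2) control against 1.561, 1.602 and 1.754 CPM in SK-N-AS control, a log2 difference of 2.67 (95% CI 2.26 to 3.08, a fold of 6.35, adjusted p = 2.17e-08). DNAJC10, a reductase that serves degradation, differed by 1.5 (adjusted p = 9.58e-10). P4HB, a disulfide isomerase, was higher by 0.62 (adjusted p = 3.05e-06). PDIA3 and PDIA6, isomerases, were lower by small amounts, at -0.21 (adjusted p = 0.00813) and -0.23 (adjusted p = 0.000969), and both changed sign, to 0.04 and 0.02, when library totals replaced TMM, which moved the median of all genes to 0.243, against -0.005. The PDIA3 call was also lost without the SK-N-BE(2) control of batch 3 (adjusted p = 0.143). WFS1 was lower in SK-N-BE(2) at -1.68 (adjusted p = 1.75e-08), SEC61B, a subunit of the translocation channel, was lower at -0.70, and SEC24D, a cargo adaptor of export vesicles, was higher at 0.52. The 13 mitochondrial transcripts and the neuroblastoma markers given above also differ between the labels, and their part in these differences was not tested.

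**Figure D5:**
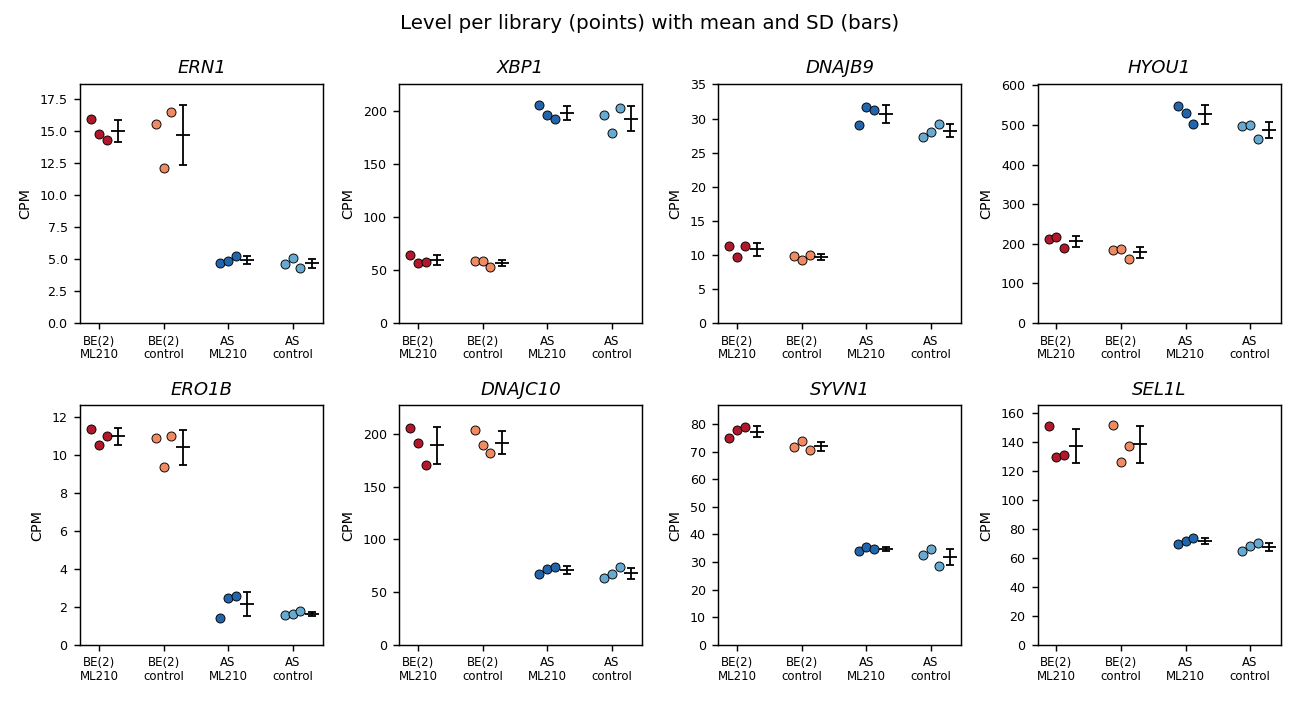
CPM per library (points) with mean and SD over 3 libraries (bars) for ERN1, XBP1, DNAJB9, HYOU1, ERO1B, DNAJC10, SYVN1 and SEL1L in the 4 groups. XBP1, DNAJB9 and HYOU1 are lower and the other 5 higher in every SK-N-BE(2) library, with or without ML210.

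Related genes outside the set were read from 6 lists of 152 genes, of which 150 were tested. In SK-N-BE(2) with ML210, 4 of 33 other degradation genes rose and none fell, beside 0.818% of all genes higher and 0.557% lower. They were NPLOC4, UFD1, VCP and UBXN4, of which VCP is the ATPase that pulls proteins out of the membrane and NPLOC4 and UFD1 are its cofactors. VCP had 671.2, 616 and 493.2 CPM with ML210 against 460.1, 457.5 and 433 CPM without. All treated libraries lay above the controls, batch 3 least, with a log2 fold change of 0.40 (SE 0.0896, adjusted p = 0.0475). NPLOC4 rose by 0.41 (SE 0.0727, adjusted p = 0.0174), UBXN4 by 0.32 (adjusted p = 0.0313) and UFD1 by 0.59 (SE 0.126, adjusted p = 0.0475). NPLOC4 was called in 13, UBXN4 in 10, VCP in 6 and UFD1 in 5 of 19 alternative fits.

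Of 46 genes of translocation and early secretion, 3 rose in SK-N-BE(2) and none fell, beside the same shares of all genes. RPN1, a subunit of the glycosylating complex, rose by 0.30 (adjusted p = 0.0123), SRPRB, a subunit of the receptor for the signal recognition particle, by 0.35 (adjusted p = 0.029) and SEC61A1, the channel of translocation, by 0.22 (adjusted p = 0.0306). They were called in 14, 13 and 8 of 19 alternative fits, with adjusted p up to 0.089, 0.159 and 0.224. Of 18 genes of the PERK branch and the integrated stress response, CEBPB, a transcription factor, rose by 0.48 (adjusted p = 0.0188) and none fell. Log2 fold changes over this list ran from -0.463 to 3.103 in SK-N-BE(2), so its largest rise was in a gene not called. In SK-N-AS they ran from -0.369 to 0.93. In SK-N-BE(2) the paired fit called 4 of these 18 higher, ATF4, PPP1R15A, TRIB3 and CEBPB, and DDIT4 lower. That fit called 3.42% of all genes higher and 3.4% lower. Of 8 ER-phagy receptors RTN3 rose by 0.30 (adjusted p = 0.0366), a call made in 7 of 19 alternative fits (adjusted p up to 0.198). Of 33 other folding genes TMX4, a membrane-bound thioredoxin relative, fell by 0.39 (adjusted p = 0.0118), and of 12 other transcription factors and proteases none was called, with 4 at an unadjusted p under 0.05 and none by DESeq2. In SK-N-AS no gene of the 6 lists was called by edgeR or by DESeq2, and the paired fit called CEBPB higher.

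Between the controls, 33.9% of all genes were called higher and 35.2% lower in SK-N-BE(2), and the counts that follow stand beside these shares. The PERK branch list had 2 genes higher and 9 lower of 18, the lower ones including ATF4 at -1.21. Translocation and secretion had 14 higher and 25 lower of 46, with SPCS2, a signal peptidase subunit, at -2.25. Other folding genes had 14 higher and 9 lower of 33, other degradation genes 13 and 13 of 33, and other factors 7 and 3 of 12.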

How the data were processed

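RNA from 12 libraries was sequenced after a stranded messenger RNA preparation, per the labels' protocols. The submitters' processing notes name FastQC, Trimmomatic 1.4, HISAT2 2.2.1, featureCounts 2.0.5 and build GRCh38. The annotation, the strand setting and the treatment of reads with several matches are not stated in the material at hand. The authors deposited raw counts per gene. Of 61552 identifiers, 61399 were named from the reference of gene names and 145 from GENCODE 29.

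Genes passing filterByExpr (20304) were fitted in edgeR 4.0.16 (R 4.3.3) with TMM and the robust quasi-likelihood test, all 12 libraries and 4 groups in 1 fit with 8 residual degrees of freedom, two-sided, Benjamini-Hochberg adjusted over all genes. SE is the log2 fold change divided by the root of F. DESeq2 1.42.0 was an alternative, as were other scaling, no filter, the 6 libraries compared alone, a replicate block and each library left out. The labels give batch as the replicate number, so same-numbered libraries are paired. Deviations of same-batch ML210 and control libraries correlated at 0.357, 0.068 and 0.121 in SK-N-AS and 0.096, 0.12 and 0.169 in SK-N-BE(2), and those of different batches at -0.269 to 0.189 and -0.1 to -0.007, so that in SK-N-AS 2 values between batches (0.125 and 0.189) exceed 2 within them. The pairing rests on the batch label. The paired fit has a batch term within each label, which leaves it fewer residual degrees of freedom than the 8 of the unpaired fit. Length is the union of exons in GENCODE 29. Replicates differed by more than sampling noise, with a chi-square per gene of 10.6 to 57.2. The scripts were tested on simulated data.

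The members and lists were chosen with earlier results of these data known. All members are named, and of each other list up to 3 called genes with the smallest adjusted p. UFD1, ATF4, PPP1R15A, TRIB3 and DDIT4 were named, and the promoters of HYOU1 and XBP1 shown, after their values were seen.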

Additional observations from a re-analysis of the deposited data

Results flagged for a closer look

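WFS1 was the 1 member whose ML210 response differed between the labels by a test of the difference in the fit paired by batch, at 0.495 on the log2 scale (SK-N-BE(2) minus SK-N-AS, adjusted p = 0.0398, positive in 3 of 3 batches). The unpaired test of the same difference gave an adjusted p of 0.509.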

How the results depend on the processing

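With a replicate block within each label, 7 members were called higher in SK-N-BE(2), 7 in the average and 1 for the difference. A block shared by both labels called 3 and 3 higher in SK-N-BE(2) and in the average. DESeq2 called 2 higher in SK-N-BE(2) and 3 in the average, and no filter 1 and 3. Library totals in place of TMM called 3 higher in the average and 19 higher between controls, and put the members' medians at 0.101 in SK-N-AS, 0.103 in the average, -0.002 for the difference and 0.245 between controls. PDIA3 and PDIA6 reversed to 0.04 and 0.02 under library totals. No filter gave medians of 0.054 in SK-N-AS and 0.02 for the difference. Fitting only the 6 libraries compared gave a median of 0.059 in SK-N-AS and 0 members lower in SK-N-BE(2). The cause of these shifts was not tested. Over 12 fits without 1 library each, SK-N-AS counts stayed at 0 to 0 higher and 0 to 0 lower with medians of 0.043 to 0.06. SK-N-BE(2) had 0 to 3 higher, 0 to 1 lower and medians of 0.06 to 0.101. The average had 0 to 4 higher, 1 to 1 lower and 0.051 to 0.091, the difference 0 to 1 higher, 0 to 0 lower and -0.012 to 0.053, and the controls 12 to 14 higher, 11 to 12 lower and -0.046 to 0.063. Of the 24 members called between controls, 21 were called in all 18 alternatives, the exceptions being CANX, PDIA3 and PDIA6. Over all genes, SK-N-BE(2) calls were 166 higher and 113 lower, against 695 and 691 with the block within labels, 272 and 183 with a shared block, 428 and 362 with DESeq2, 272 and 284 with no filter and 15 and 36 with the 6 libraries alone. In SK-N-AS they were 5 and 1, against 21 and 17 with the block within labels and 36 and 16 with DESeq2. DERL3, with 50 reads in all, had too few reads to be tested. In the average, 76% of all called genes were higher under library totals, against 56.8% with TMM.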
